A study of Mus musculus with 4 samples.

Results

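The collagen genes of mouse were followed across 4 groups of cultured aortic vascular smooth muscle cells. Members were the probes outside the control spots of the array whose RefSeq accession belongs to a gene with a collagen alpha chain symbol, that is Col, a number, a and a number. The rule used no measured value. It found 64 probes for 44 collagen genes, of 55679 probes and 21367 named genes in all. Of the 44 genes, 14 had several probes.

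The cells came from C57BL/6J mice, of the wild type (WT) or of a strain without LAMP-2A (L2AKO), the splice form of Lamp2 that serves as lysosomal receptor in chaperone-mediated autophagy. Cells were isolated from 5 aortas and used at passages 12 to 16. The labels name no separate isolations within a genotype, so a genotype difference is a difference between these cultures. All groups were kept for 24 h in medium with 5% LPDS in place of the growth serum, and the LDL groups also received LDL at 150 µg/ml cholesterol with 0.1 U/ml bovine lipoprotein lipase. The sources used here do not say whether the control groups were given the lipase as well. RNA was pooled from a triplicate for each group, and WT control, WT LDL, L2AKO control and L2AKO LDL each had 1 array with 1 colour. There was therefore no spread between replicates, no test and no p-value, and every difference below describes these arrays.

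Collagens are proteins of the extracellular matrix in which 3 alpha chains wind into a triple helix. The fibrillar collagens form the cables that carry load in the artery wall, where types I and III dominate. Type IV builds the sheet of the basement membrane around each smooth muscle cell, type VI makes beaded filaments, type VIII forms short-chain networks that are made by vascular cells after injury, and the fibril-associated collagens (FACIT) sit on the surface of fibrils. Some chains have fixed partners, such as Col1a1 with Col1a2 or Col6a1 with Col6a2 and Col6a3, so the levels of partner chains are of interest together.

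Signals were scaled by the 75th percentile of each array, a signal of 319 and 371 on the WT arrays (control and LDL) and of 389 and 434 on the L2AKO arrays, and are given as log2 values above or below that percentile. Between 47.2% and 52.0% of probes were well above background on an array, and saturation was seen at 0 spots. Slide 2 held the L2AKO LDL array and slide 1 the other 3 arrays, so in each comparison that uses it slide and group cannot be told apart. Probes printed repeatedly had a median SD of at most 0.054 between spots, or 0.076 for a difference of a pair of spots. The error that the scanner software attaches to a bright spot is larger and gives 0.20 log2 units for a difference, so errors below, written ±, are that technical estimate and hold no biological spread. Of the 2 probes of Lamp2, the first differed by 0.04 between L2AKO and WT without LDL and the second by -1.38. The sources used here do not say which of them covers the deleted part, so neither checks the labels.

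The label of the cells was set against marker genes. Of 10 contractile smooth muscle markers, the same 6 were above background on every array, among them Acta2 at 7.39 in WT control and 6.63 in L2AKO control, while Myh11, Myocd, Lmod1 and Des were not above background on any array. The summed level of the contractile list, in multiples of the 75th percentile, was 213, 189, 159 and 153 in WT control, WT LDL, L2AKO control and L2AKO LDL. Acta2 gave most of these sums, and without it they were 45.4, 40.5, 60.1 and 58.7. Without LDL, 2 of the 6 measured genes, Tagln (1.27) and Cnn1 (1.11), were at least 2-fold higher in L2AKO and Actg2 (-1.73) lower. Over all genes 7.56% were higher and 8.21% lower at 2-fold in this comparison. These shares stand beside each count of markers without LDL below. The summed level of 10 fibroblast markers was 39.4 and 35.7 on the WT arrays and 206 and 194 on the L2AKO arrays. Serpinf1 gave most of the L2AKO sums, and without it the sums were 32.9 and 30.3 in WT and 80.1 and 73.8 in L2AKO. Of 8 measured without LDL, 5 were at least 2-fold higher and none lower, with Pdgfra at -0.61 and Cd34 at -0.55. With LDL, 4 of 7 were higher and 1, Pdgfra (-1.14), was lower, where 8.3% and 10.4% of all genes were. Between 7 and 9 of the 10 were above background on an array, and Tcf21 was above it on none. Mesothelial and epithelial markers, 7 to 9 of 10 above background on an array, summed to 141 and 134 in WT and to 18.3 and 21.0 in L2AKO, or without Perp to 63.5 and 58.8 and to 17.9 and 20.7. Of 7 measured without LDL, 6 were at least 2-fold lower and Upk3b (1.17) higher. Adipocyte markers, 3 of 6 above background on every array, summed to 5.41 and 6.76 in WT and to 17.4 and 18.2 in L2AKO, with Adipoq above background on none. Pparg gave most of these sums, and without it they were 1.99 and 2.77 in WT and 5.10 and 5.52 in L2AKO. Of 3 measured without LDL, Pparg (1.86) and Fabp4 (1.87) were at least 2-fold higher, and Lpl differed by -0.31. Macrophage markers, 5 to 7 of 10 above background on an array, summed to between 32.8 and 51.3, mostly through Itgam. Endothelial ones, 3 to 4 of 10, summed to between 7.03 and 11.3. Adgre1, Ptprc, Cdh5 and Tek were above background on no array, and Cd68, Csf1r, Itgam, Kdr and Egfl7 on all 4. Without LDL, of 5 measured macrophage and 3 endothelial markers only Cd68 (1.85) reached 2-fold. With LDL, of 6 measured macrophage and 3 endothelial markers, Cd68 (1.79), Vwf (1.10) and Egfl7 (1.25) were at least 2-fold higher in L2AKO. None was lower, where 8.3% of all genes were higher and 10.4% lower, and this comparison crosses slides. The part of these markers in the collagen differences between the genotypes was not tested, and in such bulk RNA fewer cells of a type and less RNA per cell cannot be told apart.

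The upstream sequences of 5 collagen genes are shown because these genes differed at least 2-fold between the genotypes (Col3a1, Col8a1, Col11a1, Col6a3) or are the partner chain of one that did and went the other way (Col6a1). They are the 250 bases before the annotated start, from RefSeq in build GRCm38.p6, written 5′ to 3′ on the gene's strand. They lie at chr1:45311288-45311537 (plus strand) for Col3a1, chr16:57754738-57754987 (minus) for Col8a1, chr3:114030290-114030539 (plus) for Col11a1, chr1:90843972-90844221 (minus) for Col6a3 and chr10:76726045-76726294 (minus) for Col6a1. Capitals mark 3 motifs on either strand, the TATA box core TATAAA together with the CCAAT box (CCAAT) and the GC box core GGGCGG, which do not overlap each other here.
Col3a1: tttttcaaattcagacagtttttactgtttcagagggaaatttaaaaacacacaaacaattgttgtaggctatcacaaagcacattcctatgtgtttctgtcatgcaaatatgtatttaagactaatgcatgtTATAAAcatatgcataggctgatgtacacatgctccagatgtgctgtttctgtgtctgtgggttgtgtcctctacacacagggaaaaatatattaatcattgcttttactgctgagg
Col8a1: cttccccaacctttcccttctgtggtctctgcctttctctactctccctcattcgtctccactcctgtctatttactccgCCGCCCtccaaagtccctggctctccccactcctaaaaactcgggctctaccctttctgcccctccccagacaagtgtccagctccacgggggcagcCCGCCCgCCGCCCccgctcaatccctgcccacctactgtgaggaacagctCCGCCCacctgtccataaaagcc
Col11a1: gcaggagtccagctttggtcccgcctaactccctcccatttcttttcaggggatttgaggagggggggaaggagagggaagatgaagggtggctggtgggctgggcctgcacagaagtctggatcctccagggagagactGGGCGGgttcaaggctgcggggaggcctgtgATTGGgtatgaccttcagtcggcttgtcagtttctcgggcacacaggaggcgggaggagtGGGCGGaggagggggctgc
Col6a3: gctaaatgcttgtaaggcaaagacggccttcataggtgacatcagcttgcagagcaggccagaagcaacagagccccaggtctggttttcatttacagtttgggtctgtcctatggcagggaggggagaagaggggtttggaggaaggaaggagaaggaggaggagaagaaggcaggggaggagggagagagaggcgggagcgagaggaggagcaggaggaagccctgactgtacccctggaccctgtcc
Col6a1: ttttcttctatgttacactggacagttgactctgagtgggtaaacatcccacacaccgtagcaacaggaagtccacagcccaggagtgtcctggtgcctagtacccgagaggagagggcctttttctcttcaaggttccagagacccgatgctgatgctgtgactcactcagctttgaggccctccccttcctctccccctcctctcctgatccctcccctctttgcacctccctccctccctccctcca
The Col3a1 window has 35.2% G and C and a TATAAA at bases 117 to 112 before the start. Col8a1 (60.8% G and C) holds GGGCGG at 4 places and Col11a1 (62.4%) at 2 places with a CCAAT between them. Col6a3 (57.2%) and Col6a1 (56%) hold none of the 3. Over all 32851 windows of this length, 12.4% hold TATAAA, 33.8% CCAAT and 32.7% GGGCGG, against 13.2%, 34.2% and 57.9% of the 38 windows that 35 collagen genes have in the table. TCACNCCAC, a form of the sterol element that responds to LDL cholesterol in other genes, is in 1 of the 38 collagen windows, that of Col17a1, and in 1.05% of all windows. These letters describe the windows and say nothing about which factors bind there.

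Expression of the family was broad but not complete. Of 44 genes, 26 were well above background on all 4 arrays, 4 on some arrays and 14 on none. The fibrillar class had 9 of 11 genes above background on all arrays, the basement membrane class 5 of 6, the fibril-associated class 5 of 9, the beaded filament class 3 of 6 and the short-chain class 2 of 3, with Col7a1 and Col18a1 besides. None of the 4 transmembrane collagens reached all arrays. The genes above background on no array were Col4a3, Col6a4, Col6a6, Col9a1, Col9a3, Col13a1, Col15a1, Col17a1, Col19a1, Col22a1, Col24a1, Col25a1, Col27a1 and Col28a1. Among them, Col17a1 is a hemidesmosome collagen of epithelia and Col4a3 a kidney and lung basement membrane chain. The 28 probes above background on no array lay between -7.38 and -3.98, and the lowest value of a collagen probe above background on all arrays was -4.26, so these ranges overlap. The lowest value well above background of any probe was between -4.40 and -4.23 on the slide 1 arrays and -5.08 on the L2AKO LDL array, so there is no single limit.

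The genotypes were compared without LDL first, where the arrays shared 1 slide. Type III collagen, the partner of type I in elastic arteries, stood at 0.76 in WT control and 6.91 in L2AKO control, and the short-chain collagen Col8a1 at -0.27 and 3.39. The fibril-associated Col12a1 went the other way, with 1.33 and -1.50, as did the type VI chain Col6a3, with 1.04 and -1.22. Of 27 measured collagen genes 7 were at least 2-fold higher in L2AKO and 2 at least 2-fold lower, where 7.56% and 8.21% of 12593 measured genes were. The median over the collagen genes was 0.46, against -0.01 over all genes, and 20 of the 27 (74.1%) lay above 0, as did 48.9% of all genes.

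The same comparison with LDL, which shares no array with it but crosses slides, had 11 of 26 collagen genes at least 2-fold higher and 3 lower, where 8.3% and 10.4% of 12934 genes were. The median was 0.76, against -0.05 over all genes, and 18 of the 26 (69.2%) lay above 0, as did 46.6% of all genes. Col2a1, Col3a1, Col5a1, Col8a1, Col11a1 and Col20a1 were at least 2-fold higher in both comparisons, which is 85.7% of the higher genes without LDL and 54.5% of those with LDL. Over all genes measured in both comparisons these shares were 79.4% and 71.0%. Col6a3 and Col12a1 were lower in both, which is all 2 lower genes without LDL and 66.7% of those with LDL, against 85.5% and 73.4% over all genes. Of all genes measured in both, 5.9% were higher and 7.01% lower at 2-fold in both.

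**Figure D1:**
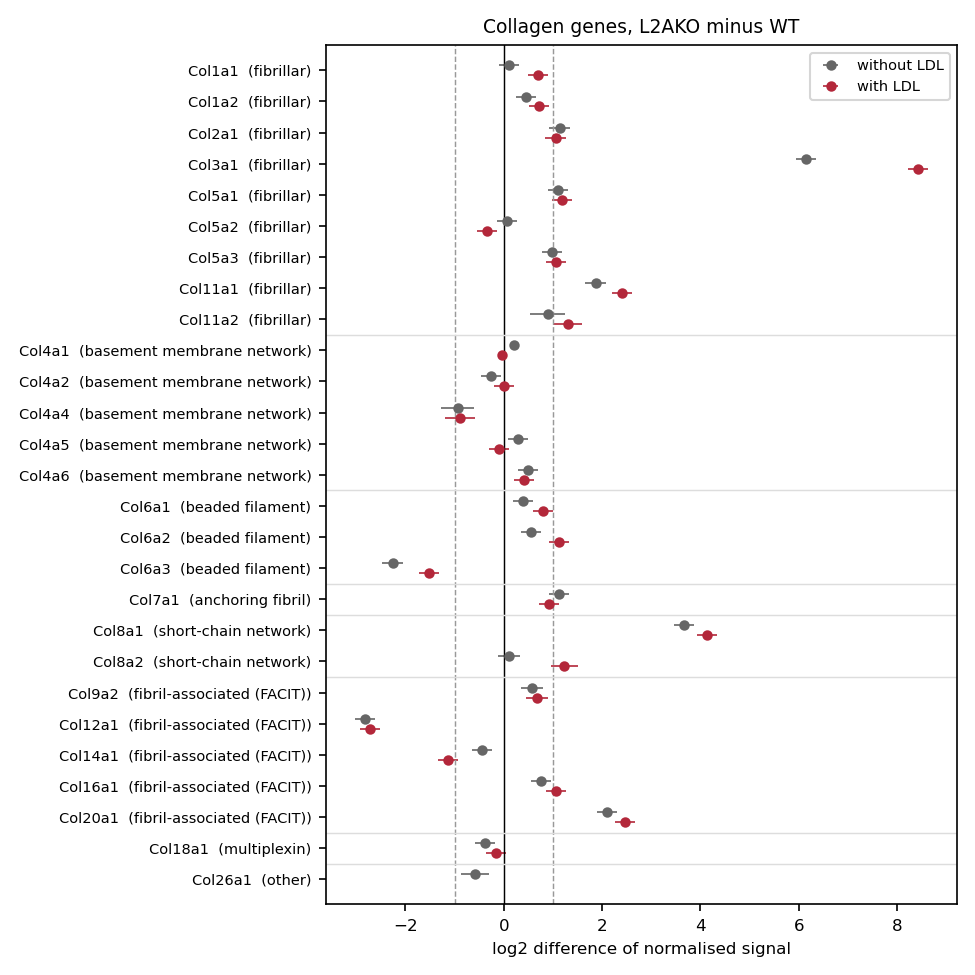
The x axis gives the log2 difference of normalised signal, L2AKO minus WT, for each collagen gene above background on the arrays compared (y axis, by class). Grey points are without LDL and red points with LDL (1 array per group), bars are the technical error given by the scanner software, which is smaller for Col4a1 because it has 10 spots, and dashed lines mark 2-fold. Col3a1 and Col8a1 lie farthest to the right and Col12a1 and Col6a3 farthest to the left at both conditions.

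Among fibrillar collagens, all 9 measured genes lay above 0 without LDL and 8 of 9 with LDL, where 48.9% and 46.6% of all genes did. The sizes were uneven. Col3a1, the single chain of type III collagen, read 0.76 without and -1.39 with LDL on the WT arrays, and 6.91 without and 7.04 with LDL on the L2AKO arrays. Before scaling by the percentile, its signal in the control groups was 541 in WT and 46975 in L2AKO. Both L2AKO arrays were therefore far above both WT arrays, by 6.15 ± 0.20 without LDL (71.1-fold) and 8.43 ± 0.21 with LDL (344-fold). This gene has 1 probe, so no other probe could be set beside it. It was the widest collagen difference in either genotype comparison, and over the alternative settings it ran from 6.09 to 6.44 without LDL and from 7.82 to 8.65 with LDL, where 7.82 was the value after normexp.

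Type I collagen, which shares its fibrils with type III, differed by less than 2-fold. Col1a1, its alpha 1 chain, read 6.66, 6.51, 6.76 and 7.21 in the order WT control, WT LDL, L2AKO control and L2AKO LDL, which is kept below. Col1a2, its alpha 2 chain, read 8.18, 8.02, 8.64 and 8.74. The L2AKO arrays were the higher in each pair, by 0.10 for Col1a1 and 0.46 for Col1a2 without LDL and by 0.70 and 0.71 with LDL, all under 2-fold. The contrast of Col1a1 minus that of Col1a2 was -0.36 ± 0.29 without LDL and -0.01 ± 0.29 with LDL.

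Type V collagen, which sits in the core of type I fibrils and limits their width, split by chain. Col5a1, the alpha 1 chain, read 3.65, 3.43, 4.75 and 4.62, with the L2AKO arrays above the WT arrays by 1.10 ± 0.20 and 1.19 ± 0.20. Col5a3, the alpha 3 chain, read 1.78, 1.00, 2.77 and 2.06, with genotype differences of 0.99 without LDL and 1.06 with LDL. Col5a2, the alpha 2 chain and the neighbour of Col3a1 on the chromosome, read 2.01, 2.10, 2.08 and 1.76 and differed by 0.07 and -0.34. Col5a1 thus exceeded Col5a2 in this contrast by 1.03 ± 0.29 without LDL and 1.53 ± 0.29 with LDL, and Col3a1 exceeded its neighbour by 6.08 ± 0.29 and 8.76 ± 0.29.

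The cartilage collagens of types II and XI were higher in L2AKO, whereas the cartilage collagen Col10a1, described below, was not. Col11a1, the alpha 1 chain of type XI, read -0.38, -0.11, 1.48 and 2.30, which is 3.65-fold higher in L2AKO without LDL and 5.30-fold with LDL. Its partner Col11a2 was dim, with -3.77, -3.60, -2.88 and -2.31, and differed by 0.89 ± 0.36 and 1.30 ± 0.30. Col2a1, the chain of type II collagen, read -1.81, -1.87, -0.67 and -0.81 and was higher in L2AKO by 1.14 ± 0.21 and 1.06 ± 0.21. Of 11 further cartilage and bone markers, 4 were measured without LDL, of which the matrix phosphoprotein Spp1 was at least 2-fold higher (2.28) and the cartilage regulator Sox9 differed by -0.41. Comp (-0.26) and Runx2 (-0.29) were the others. None of the 4 was 2-fold lower, and over all genes 7.56% were higher and 8.21% lower. With LDL, of 5 measured, 1 was higher (Spp1, 2.17) and 1 lower (Bglap, -2.40), where 8.3% and 10.4% of all genes were. Their median was -0.54 and Sox9 differed by -0.74. The summed level of the 11 was 6.00 and 6.38 on the WT arrays and 4.94 and 4.16 on the L2AKO arrays. Sox9 gave most of these sums, and without it they were 0.57 and 0.92 in WT and 0.83 and 0.88 in L2AKO. Matn1 and Matn3 were above background on no array.

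Basement membrane chains showed no 2-fold genotype difference in any of 5 measured genes. Col4a1, the alpha 1 chain of the common type IV network, was printed 10 times and read 3.01 ± 0.053, 3.44 ± 0.063, 3.23 ± 0.054 and 3.42 ± 0.035 (SD of 10 spots on 1 array). Its partner Col4a2, whose start lies next to that of Col4a1 on the opposite strand, read 3.13, 3.27, 2.87 and 3.27. Genotype differences were 0.22 and -0.03 for Col4a1 and -0.26 and 0.01 for Col4a2. The chains of the X-linked pair differed by 0.28 and -0.09 for Col4a5 and by 0.49 and 0.41 for Col4a6, of which a second probe gave 0.00 and 0.02. Col4a4 was dim (-3.03, -3.38, -3.97 and -4.26), with differences of -0.94 ± 0.34 and -0.89 ± 0.30, and its further probes were above background on no array.

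Type VI collagen is built from 1 chain each of Col6a1, Col6a2 and usually Col6a3. Col6a1 read 7.11, 6.76, 7.49 and 7.56 and Col6a2 read 4.32, 4.01, 4.88 and 5.13, so each was highest on the L2AKO arrays. Col6a3 read 1.04, 0.78, -1.22 and -0.75 and was lowest there, 4.80-fold lower without LDL and 2.88-fold lower with LDL. Relative to Col6a3, the contrast of L2AKO with WT was larger by 2.65 ± 0.29 for Col6a1 and by 2.82 ± 0.29 for Col6a2 without LDL, and by 2.33 ± 0.29 and 2.65 ± 0.29 with LDL. The chains that can take the place of Col6a3 were at the limit of detection. Col6a4 and Col6a6 were above background on no array, and Col6a5 on the L2AKO LDL array only, by 1 of its probes (-4.16 ± 0.24). Its bound against WT LDL, 1.18-fold higher or 0.24 in log2 units, was no larger than that error. Col6a3 was measured by 1 probe, so its direction rests on that probe.

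The short-chain collagen Col8a1 read -0.27, -0.83, 3.39 and 3.30, which is 12.6-fold higher in L2AKO without LDL and 17.6-fold with LDL. Its partner Col8a2 read -2.37, -3.62, -2.26 and -2.39, so WT LDL stood below the other 3 arrays, and the genotype difference was 0.10 ± 0.23 without LDL and 1.23 ± 0.27 with LDL. These Col8a2 values rest on the brighter of its probes, since the other was above background on no array. Col10a1, the collagen of hypertrophic cartilage, was above background on the WT arrays only (-3.78 and -2.95). On the L2AKO arrays it was at least 1.46-fold lower than in WT control and at least 4.38-fold lower than in WT LDL.

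**Figure D2:**
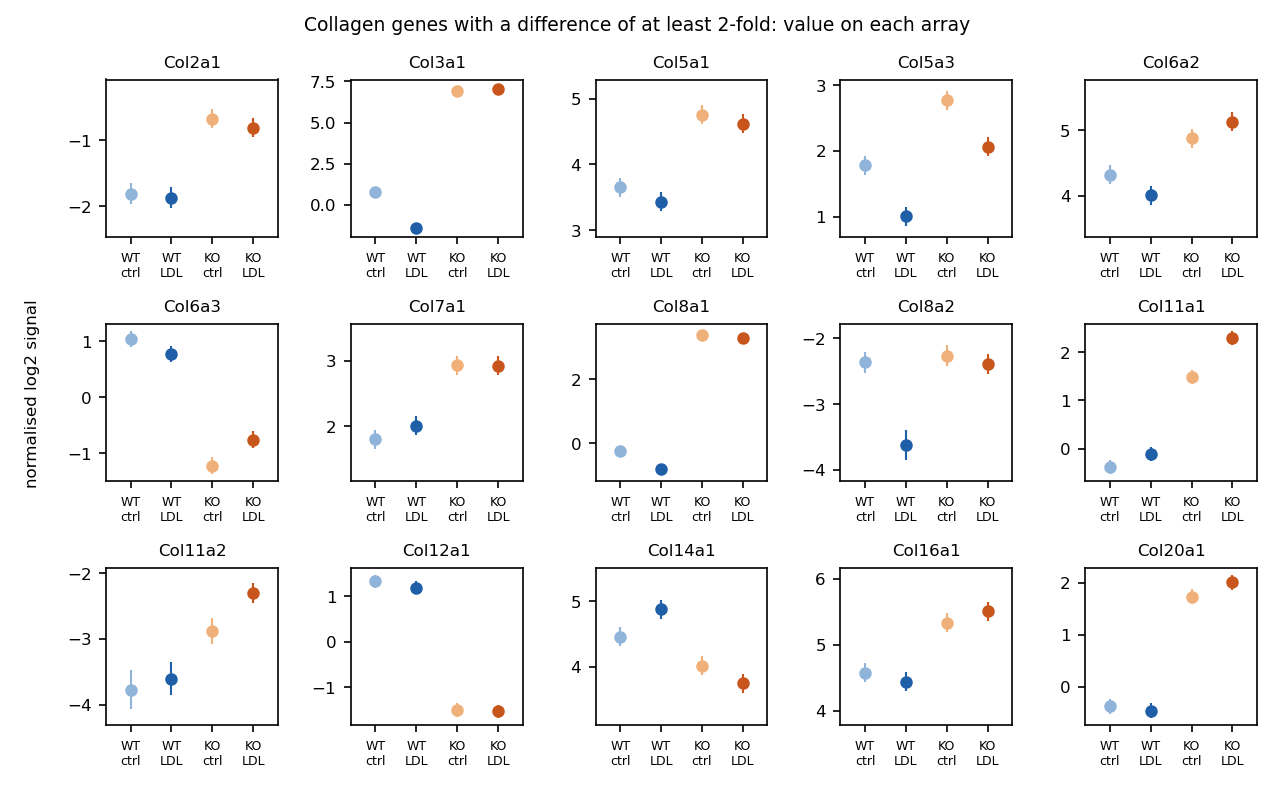
Each panel is a collagen gene with a difference of at least 2-fold in any comparison, and the y axis gives its normalised log2 signal on the WT control, WT LDL, L2AKO control and L2AKO LDL array (1 point per array, KO standing for L2AKO). Bars are the technical error given by the scanner software, and the y axes differ between panels. The L2AKO arrays lie above the WT arrays for most panels and below them for Col6a3, Col12a1 and Col14a1, while for Col8a2 the WT LDL array stands below the other 3.

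Fibril-associated collagens went in opposite directions. Col12a1, which bridges fibrils and the surrounding matrix, read 1.33, 1.18, -1.50 and -1.54, that is 7.07-fold lower in L2AKO without LDL and 6.58-fold lower with LDL. Col20a1 read -0.38, -0.46, 1.73 and 2.01, that is 4.31-fold and 5.54-fold higher, and its second probe gave 1.99 and 2.21 in log2 units. Col14a1, which binds to fibrils and to the proteoglycan decorin, read 4.46, 4.87, 4.02 and 3.75, and differed by -0.44 and -1.13. Its probes disagreed, since the second one gave 0.23 and -0.03, and the mean over probes was -0.58 with LDL. Col16a1 read 4.57, 4.44, 5.34 and 5.51, with 0.77 and 1.07, and its 3 probes ranged from 0.77 to 0.98 without LDL but from -0.20 to 1.07 with LDL, where their mean was 0.62. Col9a2, a chain of the type IX collagen of cartilage, differed by 0.57 and 0.68, and its partners Col9a1 and Col9a3 were above background on no array.

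Of the remaining members, Col7a1, the anchoring fibril collagen, read 1.80, 2.01, 2.93 and 2.92, with genotype differences of 1.13 ± 0.20 and 0.91 ± 0.20. Col18a1, a basement membrane collagen whose end fragment is endostatin, differed by -0.38 and -0.15. Col26a1 was above background on the control arrays only, at -2.60 in WT and -3.18 in L2AKO. Col23a1, a transmembrane collagen, had 1 of 3 probes above background, on the WT LDL array only (-4.08).

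**Figure D3:**
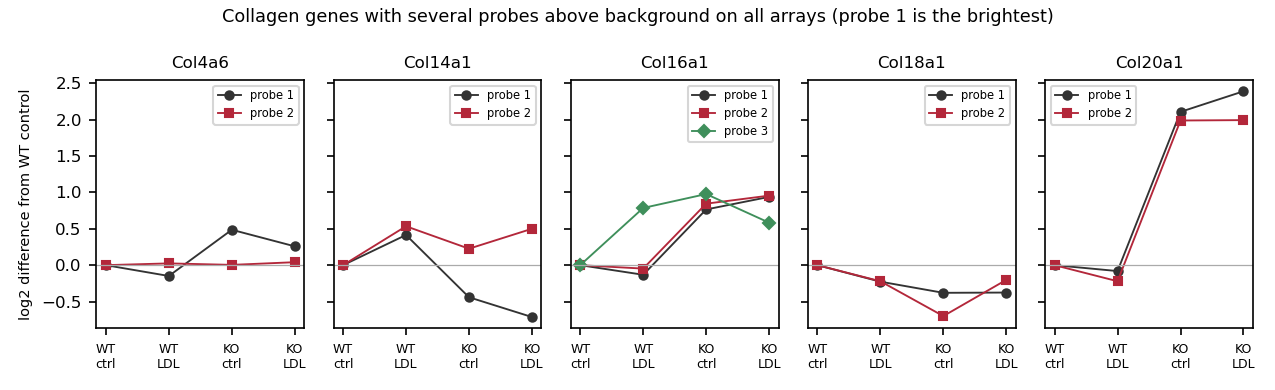
The y axis gives the log2 difference of each probe from its own WT control value on the 4 arrays (x axis, KO standing for L2AKO) for the 5 collagen genes with several probes above background on all arrays. Lines are probes, numbered from the brightest, with 1 array per point. The probes of Col20a1 run together, whereas those of Col14a1 part on the L2AKO arrays.

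Of the 8 genes at least 2-fold apart in both genotype comparisons, all but Col2a1 stayed so under all 9 alternatives computed for single genes. These were Col3a1, Col5a1, Col6a3, Col8a1, Col11a1, Col12a1 and Col20a1. Not every alternative could move them. The other rules for dim probes return the main value for genes above background on all arrays. The mean over probes could differ only for Col20a1, which has several probes. The result for the rest thus rests on the other scalings, normexp and the authors' deposited value table. Col2a1 differed by 0.79 without and 0.74 with LDL after normexp with quantile normalisation. In the authors' deposited value table it differed by 0.87 and 0.83. Col8a2 and Col11a2, past 2-fold with LDL, were at 0.62 and 0.65 after normexp and at 0.76 and 0.81 in the authors' deposited value table. With no scaling between arrays, higher genes made up 68.9% of all calls without LDL against 47.9%. There 10 collagen genes were higher and 2 lower, where 1509 and 680 of 12593 genes were. With LDL that share was 44.4%, against 60.0% with median scaling (a shift of all genes by 0.20) and 62.0% with no scaling (0.23), where 13 collagen genes were higher and 2 lower in each case. Of 12934 genes, 1482 were higher and 986 lower with median scaling and 1557 and 954 with no scaling. At 1.5-fold in place of 2-fold, 10 collagen genes were higher and 4 lower without LDL, where 15.2% and 16.6% of all genes were. With LDL, 16 were higher and 4 lower at 1.5-fold, where 16.9% and 20.5% of all genes were.

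The LDL comparison in WT, on 1 slide, asked how the collagen genes stood after LDL loading. None of 27 measured collagen genes was at least 2-fold higher and 2 were at least 2-fold lower, where 0.247% and 1.02% of 12977 genes were. Col3a1 was 4.44-fold lower with LDL (-2.15 ± 0.21) and Col8a2 2.38-fold lower (-1.25 ± 0.28), the latter at -0.62 and -0.75 with normexp and in the authors' deposited value table. Col5a3 (-0.78) and Col8a1 (-0.57) came next below 0, and Col10a1 (0.84 ± 0.35), Col4a1 (0.43) and Col14a1 (0.41) lay highest. The median was -0.15, against -0.05 over all genes, and it was -0.04 after normexp and 0.07 with no scaling between arrays. Of the 27, 37.0% lay above 0, near the 39.3% of all genes. At 1.5-fold, 1 gene (Col10a1) was higher and 3 were lower (Col5a3 besides), where 1.25% and 2.46% of all genes were. Col26a1, which was not above background with LDL, read -2.60 without and -4.34 with LDL. This difference of -1.74 ± 0.42 uses the dim value itself, so it is not a bound.

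In L2AKO, across slides, none of 26 measured collagen genes was at least 2-fold higher or lower with LDL, where 0.93% and 1.33% of 13008 genes were. The widest differences were 0.81 for Col11a1, 0.57 for Col11a2, 0.47 for Col6a3 and 0.46 for Col1a1 on the higher side and -0.70 for Col5a3 on the lower side. Col3a1 differed by 0.12 ± 0.20. The median was 0.03, against -0.08 over all genes. At 1.5-fold, 1 gene was higher (Col11a1) and 1 lower (Col5a3), where 3.34% and 4.55% of all genes were. Among the 26 collagen genes above background on all arrays, none reached 2-fold in both genotypes in the same direction, where 0.032% of 12491 genes were higher and 0.48% lower in both. Col26a1 was at least 3.71-fold lower with LDL, so it was above background without LDL and not with LDL in both genotypes. Col5a3 lay below 0 by a similar amount in both genotypes, -0.78 in WT and -0.70 in L2AKO.

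**Figure D4:**
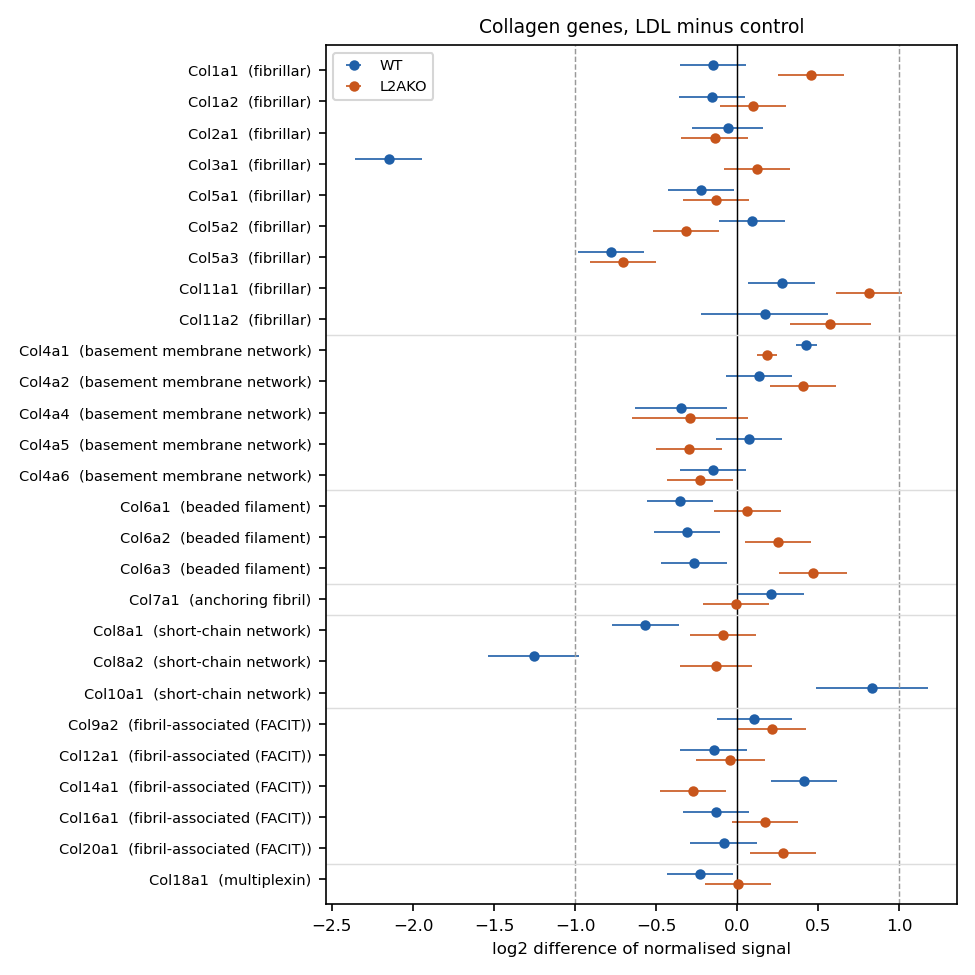
The x axis gives the log2 difference of normalised signal, LDL minus control, for each collagen gene above background on the arrays compared (y axis, by class). Blue points are WT and orange points L2AKO (1 array per group), bars are the technical error given by the scanner software and dashed lines mark 2-fold. Col3a1 and Col8a2 in WT are the points below -1, and the 3 type VI chains lie left of 0 in WT and right of it in L2AKO, where Col6a1 turned to -0.01 in the authors' deposited value table.

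The last comparison subtracted the LDL response of WT from that of L2AKO. Of 26 collagen genes, 2 were at least 2-fold higher in this difference and none lower, where 1.39% and 0.721% of 12491 genes were. They were Col3a1 (2.27 ± 0.29) and Col8a2 (1.12 ± 0.36), both of which stood low on the WT LDL array. The type VI chains stood at 0.73 for Col6a3, 0.56 for Col6a2 and 0.42 for Col6a1, and the type I chain Col1a1 at 0.60. The lowest was Col14a1 at -0.69, of which the second probe gave -0.26. The median was 0.24, against -0.03 over all genes, and 19 of 26 (73.1%) lay above 0, as did 46.0% of all genes. At 1.5-fold, 4 were higher and 1 lower (Col14a1), where 4.77% and 3.99% of all genes were. Every value here uses the array on the other slide. Higher genes made up 65.9% of all calls, against 79.1% with median scaling and 85.3% after normexp, and with normexp or the authors' deposited values Col3a1 was the only collagen gene called.

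Genes that make, hold, bind or degrade collagen were read from 7 lists, without LDL unless stated. Their counts stand beside 7.56% of all genes at least 2-fold higher and 8.21% lower in this comparison, and a share near these is not a result about a list. Of 20 measured genes of procollagen hydroxylation and folding, 2 were at least 2-fold higher in L2AKO and none lower (median 0.04). Plod2, the telopeptide lysyl hydroxylase that sets the type of crosslink, read 1.41, 1.41, 3.71 and 3.62 and was higher by 2.31. P3h4, which assists lysyl hydroxylation, was higher by 1.02, while the prolyl hydroxylase subunit P4hb (-0.06) and the collagen chaperone Serpinh1 (-0.51) were under 2-fold. Of 10 genes of secretion and propeptide processing, 1 was higher and none lower (median 0.39), namely the procollagen N-proteinase Adamts14 (1.28). Pcolce, the enhancer of C-propeptide cleavage, differed by 0.81 and the C-proteinase Bmp1 by 0.50.

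Crosslinking enzymes had 2 of 6 genes higher and 1 lower (median -0.26). Lox, the lysyl oxidase of collagen and elastin, read 3.22, 2.91, 5.07 and 4.82 and was higher by 1.85, Loxl1 was higher by 3.01 and Loxl4 differed by -1.42. Of 14 fibril-associated proteoglycans and organisers 1 was higher and 4 lower (median -0.21). Thbs2, a matricellular protein that affects fibril shape, read 1.04, 0.84, 4.44 and 4.51, and the lower genes were Thbs1 (-2.05), the proteoglycans Dcn (-1.69) and Lum (-1.03), and Fbln1 (-1.27). Postn, which binds collagen and was above background on the L2AKO arrays only, read -5.13, -5.04, -1.11 and -1.35. The list thus held genes on either side of 0, and in L2AKO the thrombospondins Thbs1 and Thbs2 stood on opposite sides.

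Of 12 collagen receptors and uptake genes 1 was higher and 2 lower (median -0.06). Mrc2, the receptor that takes up collagen fragments for lysosomal breakdown, read -0.03, -0.04, 3.31 and 3.68, and was higher by 3.34 without LDL and 3.72 with LDL. The collagen-binding integrin chains Itga11 (-1.40) and Itga10 (-1.21) were the lower genes, and the receptor Ddr2 differed by -0.10. Of 13 collagen-degrading enzymes and their inhibitors, 3 were higher and 1 lower (median 0.15). Ctsk, a lysosomal protease that cuts the triple helix, read -0.30, -0.64, 4.25 and 3.88, the membrane collagenase Mmp14 was higher by 1.12 and Mmp13 by 1.14. Mmp2, the gelatinase, read 4.89, 5.03, 0.95 and 1.34 and differed by -3.94. Fap, a protease of activated fibroblasts, was above background on the L2AKO arrays only, with -6.46, -6.10, 0.22 and 0.27, as was Mmp8. Mmp10 went the other way and was above background on the WT arrays only, with -2.83, -2.51, -4.13 and -5.34.

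Of 34 measured regulators of collagen transcription 2 were higher and 3 lower (median 0.12). Scx, a factor that drives collagen genes in tendon, read 4.54, 4.50, -1.41 and -1.23 and differed by -5.95. Mkx, another tendon factor, was above background on the L2AKO arrays only, with -5.37, -5.24, 0.25 and 0.07. Tgfb3 (-1.18) and Jun (-1.17) were the other lower genes, and Pparg (1.86) and Egr1 (1.26) the higher ones. Smad3 (0.25) and Ccn2 (0.06) were under 2-fold. With LDL in WT, none of the genes measured on the 7 lists reached 2-fold, where 0.247% of all genes were higher and 1.02% lower. With LDL in L2AKO, Mmp3 (-1.07) and Mmp8 (-1.30) were the only ones, where 0.93% of all genes were higher and 1.33% lower.

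**Figure D5:**
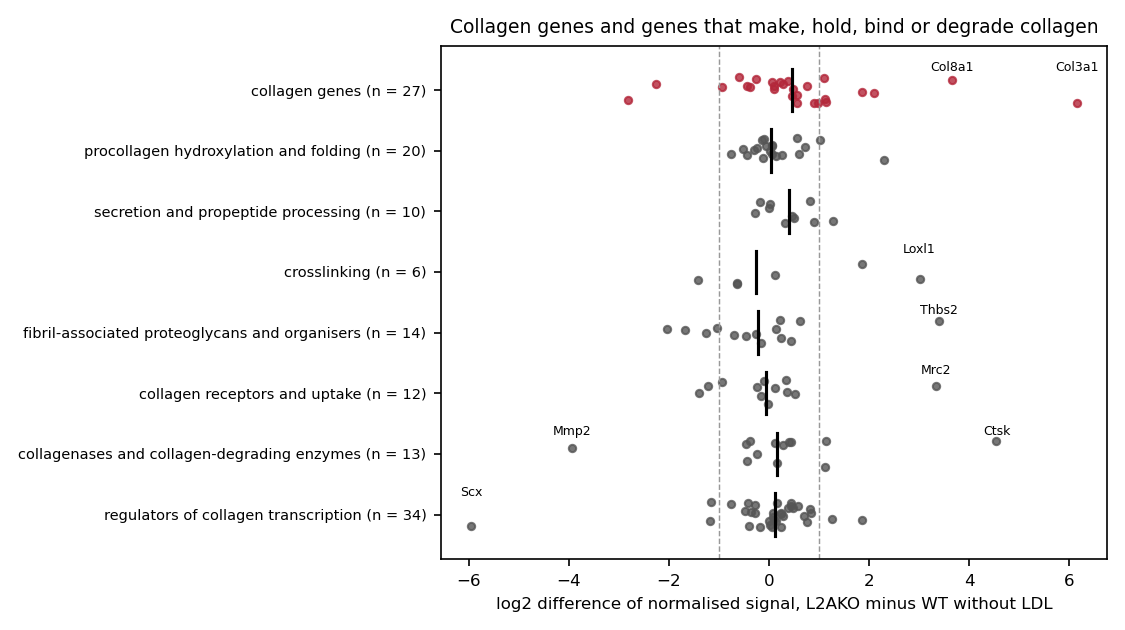
The x axis gives the log2 difference of normalised signal, L2AKO minus WT without LDL, for the collagen genes (red) and for 7 lists of genes that act on collagen (grey, 1 point per gene, spread vertically for sight). Black bars are list medians, n is the number of measured genes and dashed lines mark 2-fold. The collagen genes have the highest median, 0.46, and Scx and Mmp2 lie farthest to the left.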

How the data were processed

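Per the file headers, the authors' scanner files hold spot intensity on a linear scale, made with Agilent Feature Extraction 10.7.3.1 and background-subtracted by that software. The authors' deposited value table holds a linear intensity as well, with column medians of 57.6, 57.6, 57.5 and 57.4 and the same highest value in all columns. Its ranks follow the median spot signal, and how it was scaled between arrays stays unknown. RMA and oligo are named, without versions, in the submitters' processing notes. Control spots and outlier spots were left out, log2 values of repeated spots were averaged, and the 75th percentile of each array was subtracted. Probes were named through their RefSeq accession in a gene table of GRCm38.p6. Of 55679 probes 28330 matched 1 gene, and 27349 stayed unnamed. The probe with the highest mean stood for a gene, and a gene counted as measured where all arrays compared had that probe well above background. A gene was called at 2-fold. For a gene dim on 1 array a bound is given, which sets its bright value against its dim value or, if higher, against that array's lowest signal detected above background. Where the dim value was the higher, the result is the ratio of the readings and no bound. The number of arrays limits the precision.

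The collagen genes, lists and named genes were chosen with earlier results of these data known. All 44 collagen genes found by the rule are accounted for, and probes without a RefSeq match may hold further collagen probes. Genes are named with values where a difference reached 2-fold, probes disagreed or chains are partners, and up to 4 genes past 2-fold are named per list, with further genes of known role (such as Serpinh1, Bmp1, Ddr2, Smad3, Postn, Mkx, Fap) chosen after their values were seen. The alternatives were 3 other scalings, normexp with an offset of 50 on the median spot signal and quantile normalisation, the deposited value table, 3 other rules for dim probes, the mean over a gene's probes and a call at 1.5-fold. Steps were tested on simulated data. The software was matplotlib 3.10.9, pandas 2.3.3 and numpy 2.4.6 in Python 3.11.15, and limma 3.58.1 in R 4.3.3.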

Additional observations from a re-analysis of the deposited data

Results flagged for a closer look

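Collagen genes whose difference had opposite signs in the groups compared, with both sizes above the spread between repeated spots, were listed for a closer look. With 1 array in each group none of them was tested, and the L2AKO response crosses slides. With LDL, Col3a1 differed by -2.15 in WT and 0.12 in L2AKO. The type I chains did so by -0.15 and 0.46 (Col1a1) and by -0.16 and 0.10 (Col1a2), and the type VI chains by -0.31 and 0.25 (Col6a2) and by -0.27 and 0.47 (Col6a3). Col16a1 stood at -0.13 and 0.17, and Col20a1 at -0.08 and 0.28. In the other direction, Col14a1 differed by 0.41 in WT and -0.27 in L2AKO, and Col5a2 by 0.09 and -0.31. For Col14a1 and Col16a1 the probes disagreed on this. The second probe of Col14a1 gave 0.53 and 0.27, with the same sign. Of the further probes of Col16a1, 1 gave 0.79 and -0.39, the reverse, and 1 gave -0.05 and 0.11. The second probe of Col20a1 gave -0.22 and 0.01. Between the genotypes, Col4a5 differed by 0.28 without LDL and -0.09 with LDL. Some of these signs turned with the processing. In WT, Col1a1 reached 0.07, Col1a2 0.07, Col16a1 0.20 and Col20a1 0.14 under an alternative, in L2AKO Col1a2 reached -0.04, Col16a1 -0.04 and Col14a1 0.00, and Col4a5 with LDL reached 0.14. Of these, Col3a1 in WT is the only value past 2-fold, and most others are close to the technical error of 0.20.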

How the results depend on the processing

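No paired analysis was possible because each group had 1 array and the labels give no replicate numbers. Without a filter on dim probes, 2 of 44 collagen genes were higher and 6 lower with LDL in WT, where 550 and 807 of 21367 genes were. With LDL in L2AKO none was higher and 1 lower, where 523 and 1077 genes were. Between the genotypes 7 were higher and 7 lower without LDL, where 1845 and 2138 genes were. With LDL 12 were higher and 10 lower, where 1887 and 2661 genes were. In the difference of responses 6 were higher and 6 lower, where 1073 and 1502 genes were. These extra calls rest on probes not well above background. With probes above background on at least 1 array, 1 of 28 collagen genes was lower with LDL in L2AKO, where 391 of 14144 genes were. In the difference of responses 2 of 29 were lower, where 634 of 14768 genes were. With no scaling, 1 of 27 collagen genes, Col10a1, was higher with LDL in WT, where 75 of 12977 genes were. Higher genes then made up 42.6% of all calls against 19.4% in the main setting and 8.79% after normexp. With LDL in L2AKO that share was 41.2%, against 55.7% with median scaling, 53.6% with the percentile taken over probes detected on all 4 arrays, and it was 60.9% without scaling. The authors' deposited values and normexp each left 1 of 27 collagen genes lower with LDL in WT, where 86 and 83 of 12977 genes were. Each left 1 of 26 higher in the difference of responses, where 98 and 81 of 12491 genes were. At 1.5-fold, 1 gene was higher with LDL in WT and 1 in L2AKO, 1 was lower with LDL in L2AKO, 4 were lower between the genotypes without LDL, and 4 were higher and 1 lower in the difference of responses. The shares of all genes at 1.5-fold stand with each comparison above. No called collagen gene changed sign under an alternative computed for it, though the other rules for dim probes leave a called gene's value unchanged. The cause of these shifts was not tested. With 1 array per group and dim probes for Col8a2, Col11a2 and Col4a4, precision is limited.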
